A study of Rattus norvegicus with 5 samples.

Results

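The collagen genes of irradiated rat skin were followed across 5 single-cell libraries. Members were all gene symbols of the form Col, number, a, number, which gave 42 of the 30017 symbols in the count tables, among them Col1a1 (ENSRNOG00000003897), Col3a1 (ENSRNOG00000003357), Col4a1 (ENSRNOG00000016281), Col7a1 (ENSRNOG00000020579) and Col17a1 (ENSRNOG00000012110). Col1a2 and Col6a3 were not analysed here. The libraries were made from skin of young male Sprague-Dawley (SD) rats of no stated genotype: 4 came from skin taken 7, 14, 28 and 60 d after irradiation, and 1 came from unirradiated skin (control). For the 7, 14 and 28 d skin the paper describes a single electron beam exposure of a shaved buttock field, with lead shielding the rats around it. The 60 d library carries its irradiation and its time in the labels only. Each group was 1 library, so the values below have no replicate check, and how many animals stand behind a library is not given in the sources used here.

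Collagens are secreted or membrane-bound proteins built of chains wound into a helix, and they carry most of the load of the dermis. The fibrillar collagens (I, III, V, XI) form its fibrils, the network collagens (IV, VIII) form the sheet of basement membranes, the fibril-associated FACIT collagens (XII, XIV, XVI, XX) sit on fibril surfaces, and the beaded filaments of collagen VI link fibrils to cells. Collagen XVII holds basal keratinocytes to their basement membrane, collagen VII makes the anchoring fibrils below it, and collagens XV and XVIII are proteoglycan-like chains of basement membrane zones. Dermal fibroblasts are known as the main source of the fibrillar chains, and vessels and nerves as sources of basement membrane chains.

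Collagen IV genes lie head to head in pairs, and the stretch between the starts of Col4a2 and Col4a1 is printed because both chains are described in fibroblasts and in cells of the vessel wall below. RefSeq places it on GRCr8 (a later build than the Rnor_6.0 of the counts) at chr16:84885521-84885596, plus strand, upstream of both genes, with Col4a2 read from the minus and Col4a1 from the plus strand. Capitals mark CCGCCC, the reverse complement of GGGCGG.
Col4a2 and Col4a1, shared 5′ stretch: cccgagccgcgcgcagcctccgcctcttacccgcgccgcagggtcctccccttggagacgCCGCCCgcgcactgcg
The 76 bases were 78.9% G or C, against a median of 53.9% over 33469 windows of 76 bases that end at an annotated gene start. GGGCGG or its reverse complement occurred once, and 18.1% of the windows held it. CCAAT or ATTGG and TATAAA or TTTATA had no match in the stretch, while 13.0% and 4.61% of the windows held them.

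The libraries held between 6012 and 12239 barcodes and between 70073362 and 139566348 UMIs (unique molecular identifiers, which count captured transcripts). After quality filters 4370 to 11304 cells stayed, with median UMIs per barcode of 8637 in control and 7569, 4082, 4108 and 11650.5 at 7, 14, 28 and 60 d. Barcodes over the 20% limit of mitochondrial UMIs made up 6.40% in control and 7.44%, 25.5%, 14.1% and 11.3% at the 4 times. Cells were assigned by lists of 10 marker genes each, none of them a collagen, and libraries shared 11 to 41 barcodes pairwise. The fibroblast gate held 2863 control cells and 5610, 74, 551 and 602 irradiated cells in order of time, so the 14 d values of fibroblasts rest on few cells. All 10 fibroblast markers, such as Dcn and Lum, were detected in the fibroblasts of each library and summed to between 18912 and 26270 CPM there (UMIs of a gene per 1000000 UMIs of the gated cells of 1 library), against at most 3072 in any other gate. All levels are CPM. They are 3′ end counts and were not scaled by length. Brackets give 95% intervals of a ratio, which cover counting error only, since cells are not replicates.

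Of the 42 genes, 24 reached 50 CPM in at least 1 gated cell type and library: 6 of 10 fibrillar, 5 of 9 network, 4 of 9 FACIT, 2 of 5 beaded, 2 of 4 transmembrane and all 5 other genes. The 18 genes below that level had highest values of 0.0251 (Col23a1) to 40.3 CPM (Col9a3, in Schwann cells at 14 d). They included Col2a1 and Col10a1, the collagens of cartilage, with 12 and 2 UMIs over all kept cells. Col1a1 with 4193388 and Col3a1 with 3588118 UMIs led the genes, followed at a distance by Col6a2 (200530), Col17a1 (185884) and Col4a1 (131177).

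**Figure D1:**
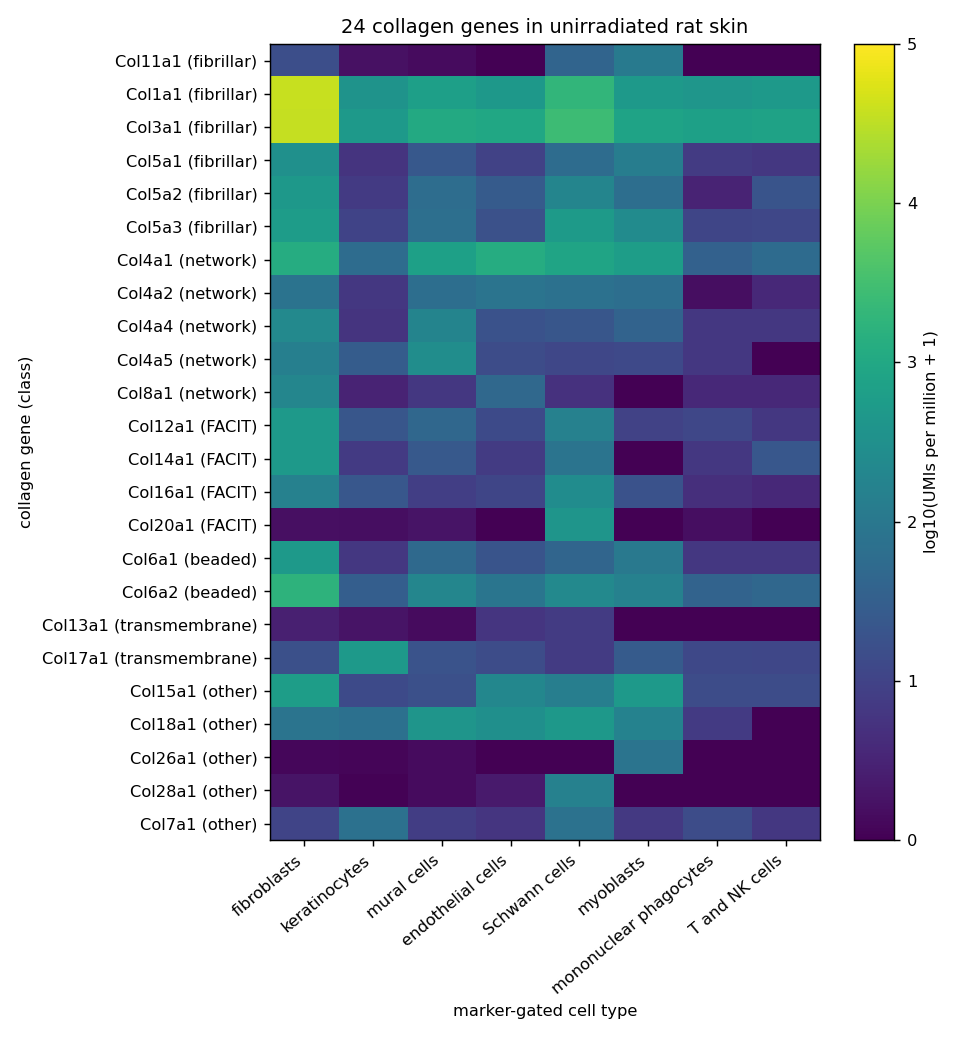
Levels in the control library of the 24 collagen genes that reached 50 CPM in some library, by gated cell type (columns) and gene (rows), coloured by log10 of CPM plus 1. Col1a1 and Col3a1 were highest in fibroblasts, Col17a1 in keratinocytes, Col20a1 and Col28a1 in Schwann cells and Col26a1 in myoblasts.

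Fibroblasts were the main collagen source in every library, though their share of the UMIs of all collagens in gated cells differed. They held 95.7% in control and 96.8%, 56.1%, 73.1% and 67.1% at 7, 14, 28 and 60 d, beside 3.60%, 2.05%, 24.6%, 20.8% and 30.8% in keratinocytes. These shares follow the number of cells of each type as well as the level per cell. Col1a1 stayed with fibroblasts throughout, at 98.0% in control and 98.0%, 94.98%, 94.5% and 96.5% at the 4 times. Col4a1 did not: fibroblasts held 86.1% of its UMIs in control and 81.7%, 4.97%, 25.3% and 48.4% later, and mural cells (pericytes and vascular smooth muscle) held 3.40%, 7.81%, 55.5%, 42.3% and 15.5%.

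Within fibroblasts, the level of all collagens together was lower in each irradiated library than in control. It was 81919 CPM in control and 72152, 67313, 71476 and 58581 at the 4 times, 7, 14, 28 and 60 d. Log2 ratios to control were -0.18 [-0.19, -0.18], -0.28 [-0.30, -0.27], -0.20 [-0.20, -0.19] and -0.48 [-0.49, -0.48]. The median cell gave a larger difference, with 6.08%, 4.07%, 4.01% and 3.03% of its UMIs from collagens at 7, 14, 28 and 60 d, against 6.98% in control, while the 90th percentile of cells was 13.7%, 13.5%, 14.4% and 11.7%, against 14.0%. The mean over cells (log2 -0.19, -0.50, -0.48 and -0.75) was accordingly lower than the ratio of summed UMIs from 14 d on.

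A gene was counted as higher or lower at a log2 ratio of at least 1 or at most -1 with at least 50 UMIs in both libraries together. In fibroblasts at 7 d, 2 of 28 collagen genes were higher and 1 was lower, where 5.6% and 2.5% of all 12020 genes measured were. At 14 d 3 of 24 were higher and 9 lower (15.2% and 10.1% of all genes), at 28 d 4 and 1 of 24 (13.4% and 6.32%), and at 60 d 3 and 1 of 24 (14.2% and 6.79%). The share of lower genes at 14 d was above its background, and the others were near theirs, given that 1 gene is about 4% of the list. The median log2 ratio of the collagen genes was -0.25, -0.57, -0.05 and -0.11 at 7, 14, 28 and 60 d, against 0.12, 0.07, 0.19 and 0.26 for all genes measured.

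**Figure D2:**
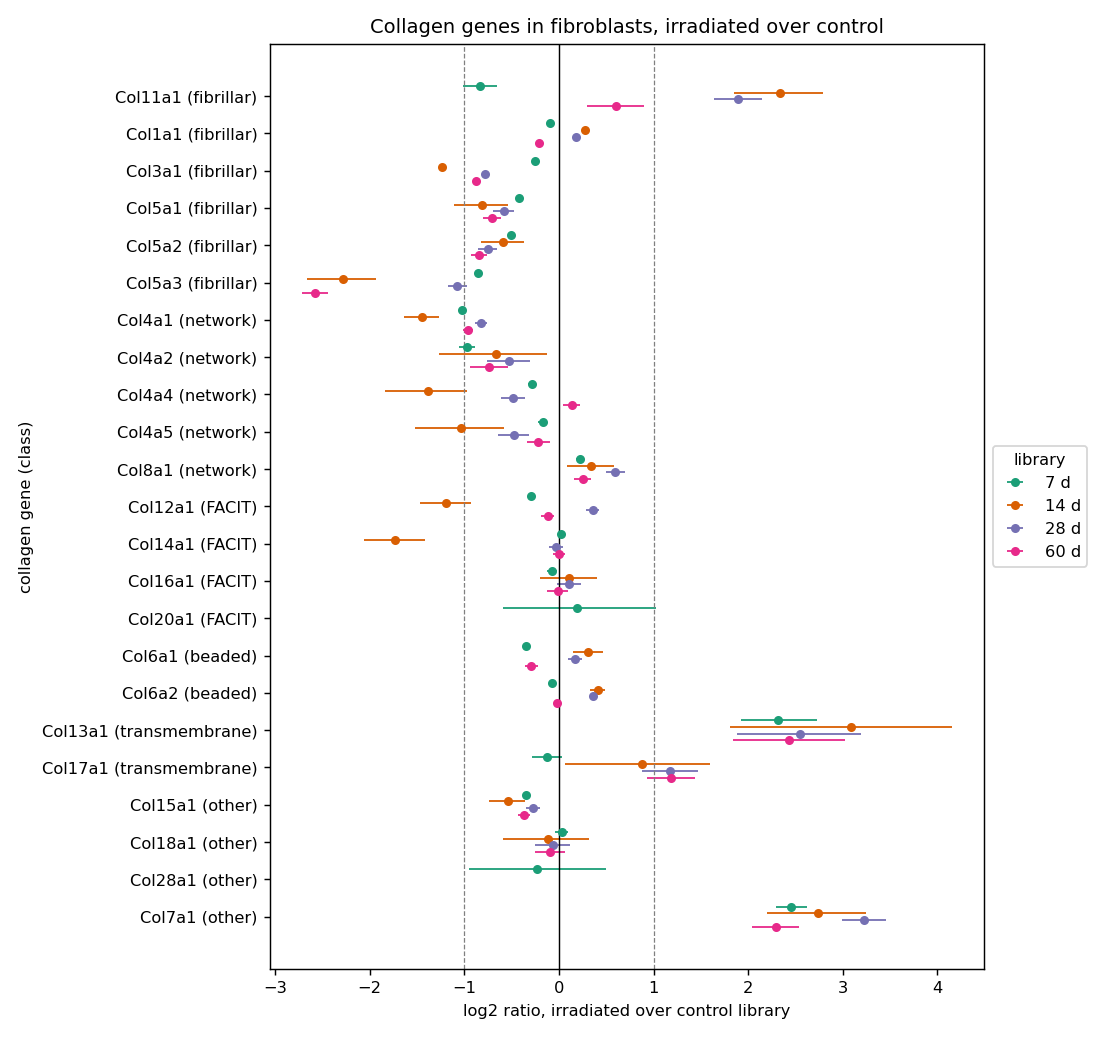
Log2 ratio of each named collagen gene in fibroblasts, irradiated over control library, for 7, 14, 28 and 60 d (colours), with 95% intervals of counting error as bars and dashed lines at -1 and 1. Col3a1, Col5a3 and Col4a1 sit left of 0 at all 4 times, and Col7a1 and Col13a1 right of 1.

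Among the fibrillar genes, Col3a1 and the collagen V chains were lower in irradiated fibroblasts while Col1a1 stayed close to control. Col1a1, the main chain of collagen I, had 38255 CPM in control and 35918, 46183, 43375 and 33081 at 7, 14, 28 and 60 d. Its log2 ratios of -0.09, 0.27, 0.18 and -0.21 took both signs. Col3a1, the chain of the thinner and more pliable collagen III fibrils, had 36295 in control and 30408, 15448, 21163 and 19742 later (log2 -0.26, -1.23 [-1.26, -1.20], -0.78 and -0.88 [-0.89, -0.87]). There were thus 0.847, 0.334, 0.488 and 0.597 Col3a1 UMIs per Col1a1 UMI at 7, 14, 28 and 60 d, against 0.949 in control.

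Collagen V is a minor fibrillar collagen that is built into collagen I fibrils and limits their width. Col5a3 showed the largest difference of its chains, with 575 CPM in control and 317, 118, 273 and 96.4 at the 4 times. The log2 ratios were -0.86 [-0.89, -0.83], -2.29 [-2.66, -1.94], -1.07 [-1.17, -0.98] and -2.58 [-2.71, -2.44], of which the 14 d value rests on 65 UMIs. Its UMIs were spread over 223 of 602 cells at 60 d and 2512 of 2863 cells in control. Col5a1 (325 in control, then 243, 185, 217 and 200) and Col5a2 (462, then 325, 306, 274 and 257) were below control at every time without reaching the threshold. Col11a1, a chain best known from cartilage, was at 15.0 CPM in control and 8.45, 76.1, 55.9 and 22.8 later. Its 14 d level came from 42 UMIs in 10 cells, of which 5 cells held 83.3%, and its 28 d level (log2 1.89 [1.64, 2.14]) from 55 cells, of which 5 held 39.1%.

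**Figure D3:**
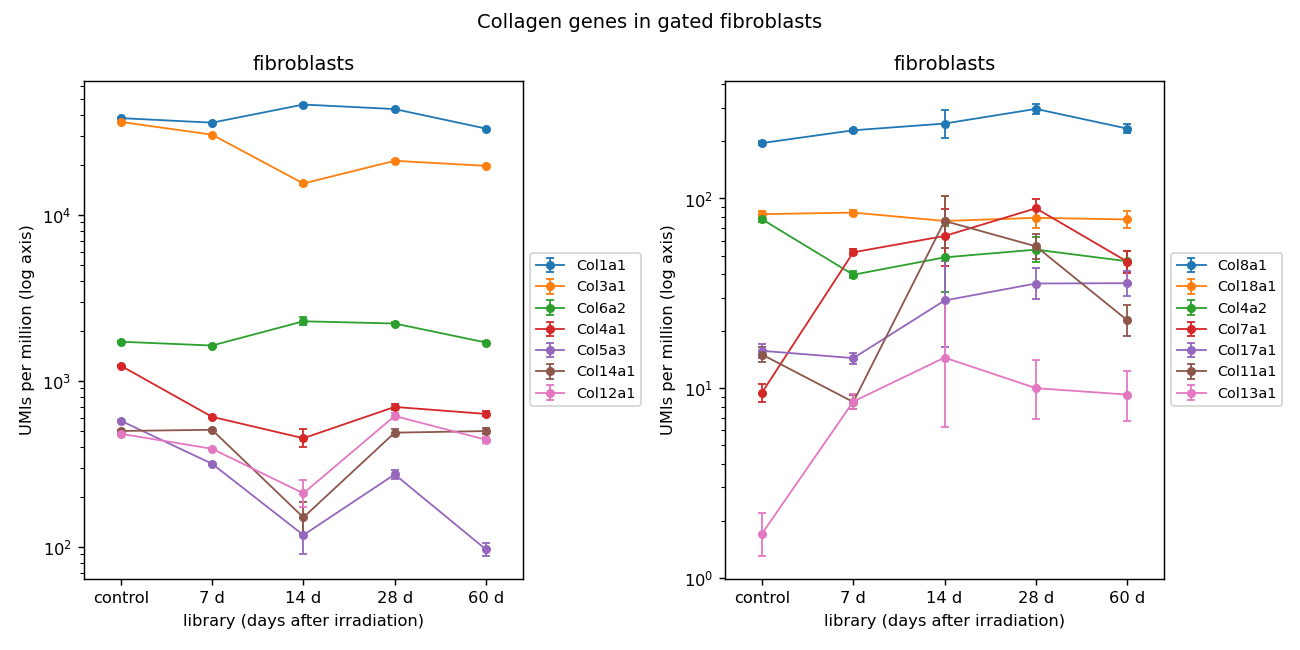
CPM (log axes) of 14 collagen genes in gated fibroblasts, by library from control to 60 d, with bars for the exact 95% Poisson interval. Col1a1 runs between 33081 and 46183 while Col3a1 lies at 15448 to 30408 after irradiation and 36295 in control.

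Col4a1 and Col4a2, the common collagen IV chains, were lower in irradiated fibroblasts. Col4a1 had 1234 CPM in control and 607, 451, 697 and 632 at 7, 14, 28 and 60 d, or log2 ratios of -1.02 [-1.04, -1.003], -1.45 [-1.64, -1.27], -0.83 [-0.89, -0.76] and -0.97 [-1.02, -0.91]. The transcript was found in most cells, with a UMI in 4693 of 5610 cells at 7 d and in 2488 of 2863 control cells, and no 5 cells held more than 1.83% of the UMIs of either. T and NK cells, which should lack it, had a Col4a1 UMI in 19 of 105 cells at 7 d and in 12 of 76 in control, at median depths of 4856 and 4587 UMIs beside 10072 and 12384 in fibroblasts, and their Col4a1 level was 42.2 and 53.8 CPM. Col4a2, read from the other side of the stretch printed above, had 77.7 in control and 39.6, 48.9, 53.7 and 46.7 later (log2 -0.97, -0.67, -0.53 and -0.74). There were 0.0653, 0.108, 0.0772 and 0.0738 UMIs of Col4a2 per UMI of Col4a1 at the 4 times, against 0.0629 in control. Col4a4, a chain known from kidney basement membranes, was below the threshold at 14 d only (223, 183, 85.2, 159 and 245 CPM from control to 60 d, log2 -1.39 [-1.83, -0.97] at 14 d). Its partner Col4a3 was at 14.0 CPM in control and 15.5, 5.44, 9.06 and 20.1 later. Col8a1, a short-chain network collagen, was slightly above control at each time (196, then 229, 248, 297 and 234), with its largest log2 ratio of 0.60 at 28 d.

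The FACIT and beaded collagens of fibroblasts were mostly near control outside 14 d. Col14a1 had 499 CPM in control and 507, 150, 487 and 498 at 7, 14, 28 and 60 d, with a log2 ratio of -1.73 [-2.06, -1.42] at 14 d and between -0.03 and 0.02 at the other times. Col12a1 had 480 in control and 390, 210, 614 and 442 later (log2 -1.19 [-1.47, -0.93] at 14 d and 0.36 at 28 d). Col16a1 stayed between 150 and 171. Of the collagen VI chains, Col6a1 was at 488 in control and 383, 603, 549 and 399 later, and Col6a2 at 1721 in control and 1632, 2285, 2215 and 1702. Neither passed the threshold at any time.

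Col7a1 and Col13a1 were higher in irradiated fibroblasts at each time, on low levels, and Col17a1 at 28 and 60 d. Col7a1, the anchoring fibril collagen, had 9.48 CPM in control and 52.0, 63.4, 88.7 and 46.5 at 7, 14, 28 and 60 d (log2 2.46 [2.29, 2.63], 2.74, 3.23 and 2.29). Only the 7 d value was spread over many cells, with 3060 UMIs in 694 cells, whereas 5 cells held 91.4%, 63.0% and 70.8% of the UMIs at 14, 28 and 60 d. Under a gate that counts any UMI of a marker, the later ratios were below control (log2 -0.77, -0.50 and -0.35). Col13a1, a transmembrane collagen of cell adhesion sites, had 8.5 at 7 d, against 1.71 in control (500 against 59 UMIs, log2 2.31 [1.92, 2.73]). Its later levels of 14.5, 10.0 and 9.25 rest on 8, 32 and 45 UMIs, of which 5 cells held 81.3% at 28 d and 51.1% at 60 d, and under the gate on any UMI the 28 d ratio was below control (log2 -0.54). Col17a1 stood at 14.4, 29.0, 35.6 and 35.8 at 7, 14, 28 and 60 d, against 15.7 in control, with log2 ratios of -0.13, 0.88 [0.06, 1.59], 1.18 and 1.18. T and NK cells, which should lack it, had 46.2 and 19.4 at 28 and 60 d, against 10.8 in control, so the fibroblast level was not clear of free RNA, the transcripts of lysed cells that every droplet takes up. Col7a1 stood at 5.50, 1.14, 8.46 and 6.45 in T and NK cells at the 4 times, against 5.38 in control. The 10 keratinocyte markers summed to 684, 842, 1800 and 1273 CPM in fibroblasts at 7, 14, 28 and 60 d, against 706 in control, and the part of keratinocyte RNA in the Col7a1 and Col17a1 values was not tested.

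Most of the Col7a1 UMIs of 7 d fibroblasts sat in one group of these cells. Cells with at least 3 UMIs of Apcdd1, a Wnt inhibitor of the papillary dermis and hair follicle, made up 7.5% of fibroblasts at 7 d (421 cells) and 3.25% in control (93 cells). They held 78.8% of the fibroblast Col7a1 UMIs and 77.0% of the Col13a1 UMIs at 7 d, against 25.1% and 37.3% in control. Their Col7a1 level was 364 CPM at 7 d, against 51.2 in control (log2 2.83 [2.51, 3.17]), and Col13a1 stood at 58.2, against 13.7. Col18a1, which was near control over all fibroblasts (82.7 in control, then 84.2, 76.1, 79.1 and 77.5), was at 329 in these cells at 7 d, against 66.8 in control (log2 2.30 [2.02, 2.59]). Their Col1a1 was lower, at 42083 at 7 d, against 126372 in control (log2 -1.59), and so was the sum of all collagens, at 76994, against 191327. At 7 d Col7a1 reached 654 in the 114 cells with Rspo3, a secreted Wnt amplifier. These cells were 2.03% of fibroblasts and held 43.4% of the fibroblast Col7a1 UMIs and 38.8% of the Col13a1 UMIs at 7 d. They overlap with the Apcdd1 cells, so the Apcdd1 group was not uniform in Col7a1. The control library had only 12 cells with Rspo3 (0.419% of fibroblasts) and was not set against the 7 d level.

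Fibroblasts were also split by Sfrp2, Pla2g2a, Cxcl3 and Myoc, each at 3 UMIs or more, which with Apcdd1 gave 11 comparisons with at least 50 cells on both sides. The groups overlap, so these are not separate trials. Col3a1 was below control in all 11 with an interval off 1, with log2 ratios of -1.33 to -0.16. Col4a1 and Col5a3 were below control in 10 of 11, and the exception for both was the Apcdd1 group at 7 d (Col4a1 390, against 251 in control). Col1a1 went both ways, below control in 7 and above in 4. In cells with Pla2g2a it was at 49919, 73779 and 81439 CPM at 7, 28 and 60 d, against 43366 in control. In cells with Myoc it was at 26636, 17554 and 15540, against 28745 in control. The sum of all collagens was below control in 8 and above in 3 of the 11, the 3 being those of Pla2g2a cells, with 83095, 108698 and 114894 in Pla2g2a cells, against 81705 in control, and 59642, 38141 and 39207 in Myoc cells, against 70202 in control. Col14a1, which was near control over all fibroblasts outside 14 d, was likewise above control in 7 and below in 4, with log2 ratios of 1.12 in Sfrp2 cells at 60 d and -1.20 in Apcdd1 cells at 7 d. The makeup of the fibroblast gate, as read by this cut, differed between libraries. The cut was not scaled to depth, and the median UMIs of fibroblasts were 12384 in control and 10072, 6461, 4570 and 7122 later. The part of depth in the cell counts that follow was not tested. Cells with Cxcl3, whose control level of Col4a1 (1503) and Col5a3 (667) was above that of all fibroblasts, numbered 676 of 5610, 8 of 74, 12 of 551 and 8 of 602 at the 4 times, against 1220 of 2863 in control. Cells with Pla2g2a numbered 1268, 31, 174 and 121, against 413 in control. The part of this makeup in the values over all fibroblasts was not tested beyond the comparisons within groups.

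Col4a1 and Col18a1 of mural cells were above control at 14 and 28 d, when Col4a1 of fibroblasts was below it. In mural cells, which numbered 426 in control and 558, 306, 441 and 380 at the 4 times, Col4a1 had 697 CPM in control and 848, 1420, 1878 and 396 at 7, 14, 28 and 60 d (log2 0.28, 1.03 [0.94, 1.12], 1.43 [1.35, 1.51] and -0.81). Col4a2 followed with 62.1 in control and 97.6, 153, 167 and 45.2. Col18a1 had 395 in control and 715, 657, 1101 and 314 (log2 0.85, 0.73, 1.48 [1.37, 1.59] and -0.33). All 3 genes were highest at 28 d and below control at 60 d.

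Col12a1, a FACIT collagen of tissues under load, was also higher in mural cells at 14 and 28 d. It had 46.4 CPM in control and 56.6, 150, 221 and 57.7 later (log2 1.70 [1.38, 2.02] at 14 d and 2.25 [1.95, 2.56] at 28 d). Its UMIs were found in 134 and 190 mural cells at those times, and in 82 in control. Of the collagen VI chains, Col6a1 was at 50.5 in control and 141, 63.9, 174 and 7.66 later, and Col6a2 at 192 in control and 372, 202, 520 and 42.8. Both were above the threshold at 28 d and below it at 60 d (Col6a1 log2 1.79 and -2.72), while Col4a4 and Col4a5 kept to 160 to 215 and 247 to 380 in all 5 libraries. Smooth muscle cells, 375 of the 441 mural cells at 28 d, held only 231 of the 1376 beaded collagen UMIs there, against 230 of 586 in control. Beaded genes made up 3.78% of their collagen UMIs at 28 d, against 4.02% in control, so the 28 d collagen VI difference lay mostly in the other mural cells.

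Across the measured collagen genes of mural cells, 4 of 20 were higher and 0 lower at 7 d (3.42% and 1.1% of all genes), 4 and 3 of 16 at 14 d (3.04% and 5.84%), 7 and 1 of 17 at 28 d (4.62% and 8.63%) and 0 and 8 of 16 at 60 d (5.22% and 12.3%). These shares were above the background of higher genes at 7, 14 and 28 d and of lower genes at 14 and 60 d. The makeup of the gate differed. Pericytes numbered 78 in control and 94, 4, 29 and 0 at the 4 times, and the 60 d mural cells were nearly all smooth muscle cells (370 of 380). In smooth muscle cells alone Col4a1 was at 568 in control and 664, 1297, 1264 and 398 later, and Col12a1 at 54.9 in control and 61.3, 141, 228 and 57.5. Both were above control at 14 and 28 d and above the threshold there, as in all mural cells, but Col4a1 of smooth muscle cells was no higher at 28 d than at 14 d, so the 28 d peak of mural Col4a1 was not seen in smooth muscle cells alone. In pericytes at 7 d, all collagens together stood at 12452, against 6242 in control, and Col18a1 at 2012, against 752. The 10 fibroblast markers summed to 1140, 220, 456 and 105 CPM in mural cells at 7, 14, 28 and 60 d, against 518 in control, beside mural Col1a1 at 1323, 350, 747 and 162, against 667. Both were above control at 7 d and below it at 14 and 60 d, and at 28 d only Col1a1 was above. The part of fibroblast RNA in these fibrillar values, and in the collagen VI values of mural cells, was not tested.

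**Figure D4:**
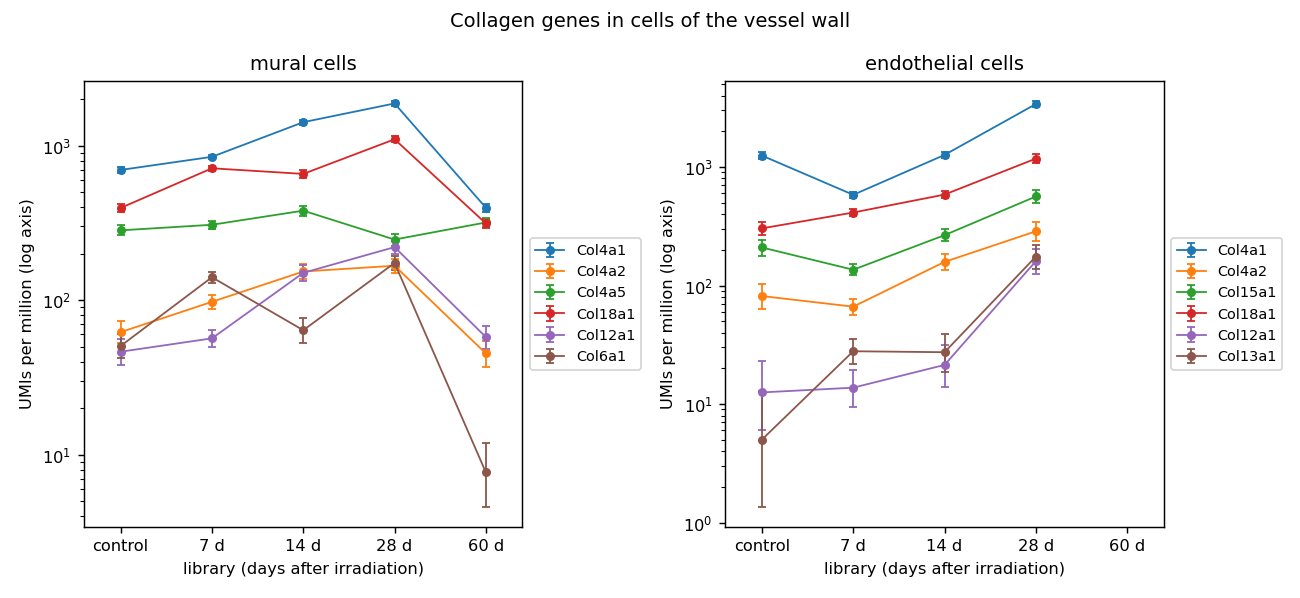
CPM (log axes) of basement membrane and other collagen genes in mural and endothelial cells by library, with exact 95% Poisson intervals. Mural Col4a1 peaks at 1878 at 28 d and lies at 396 at 60 d, and the endothelial cells of 60 d (45 cells) are not shown.

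Endothelial cells numbered 122 in control and 218, 220 and 72 at 7, 14 and 28 d, and the 45 cells of 60 d were too few to use. Col4a1 had 1247 CPM in control and 582, 1264 and 3396 at 7, 14 and 28 d (log2 -1.10, 0.02 and 1.45 [1.33, 1.56]). In control 1 cell held 23.2% and 5 cells 60.1% of its UMIs, so the control level leans on few cells. Col18a1 had 303 in control and 413, 585 and 1176 later (log2 0.44, 0.95 and 1.96 [1.73, 2.18]), Col4a2 81.5 in control and 66.3, 158 and 287, and Col15a1 209 in control and 136, 266 and 564. Each was highest at 28 d.

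Of the endothelial collagen genes measured, 1 of 11 was higher and 1 lower at 7 d (5.73% and 3.05% of all genes), 0 and 3 of 8 at 14 d (7.45% and 7.56%) and 7 and 3 of 10 at 28 d (8.33% and 12.5%). The share of higher genes at 28 d was well above its background. Col13a1 was among them with 175 CPM at 28 d, against 5.01 in control, from 71 and 4 UMIs (log2 5.13 [3.71, 7.04]), and 5 cells held 71.8% of the 28 d UMIs. Col12a1 had 161 at 28 d, against 12.5 in control, with 60.0% of its UMIs in 5 cells. The 3 lower genes at 28 d were Col1a1, Col3a1 and Col6a2. Endothelial Col3a1 was at 891, 33.4 and 32.1 at 7, 14 and 28 d, against 956 in control, beside 1226, 3.42 and 109 in T and NK cells, against 748 in control, so the control level was not clear of free RNA.

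Keratinocytes carried the collagens of the dermal junction. They held 98.0% of the Col17a1 UMIs of gated cells in control and 93.9%, 99.3%, 99.0% and 99.6% at 7, 14, 28 and 60 d. In basal keratinocytes Col17a1 had 683 CPM in control and 622, 551, 956 and 1005 later (log2 -0.13, -0.31, 0.49 [0.46, 0.51] and 0.56 [0.54, 0.58]). Col7a1 had 102 in control and 88.0, 41.7, 103 and 99.1, below the threshold at 14 d (log2 -1.29 [-1.43, -1.15]) and within 0.22 of control on the log2 scale at the other times. Keratinocytes as a whole held 39.8% of the Col7a1 UMIs at 7 d, when fibroblasts held 57.5%, against 91.6% in control.

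Col18a1 was higher in basal keratinocytes at each time, with 98.5 CPM in control and 208, 178, 186 and 148 at 7, 14, 28 and 60 d (log2 1.08 [1.02, 1.15], 0.86, 0.92 and 0.59). Suprabasal keratinocytes had 16.4 in control and 61.1, 60.3, 65.1 and 45.2 (log2 1.90, 1.88, 1.99 and 1.46). Both layers thus showed the difference, from 7 d on. Col4a6, which pairs with Col4a5 in epidermal basement membrane, was low throughout. In basal keratinocytes it was at 0.798 and 1.22 at 7 and 14 d, against 9.10 in control (log2 -3.51 [-4.31, -2.81] and -2.90), and at 10.4 and 12.3 at 28 and 60 d. It stayed under the 50 CPM for naming, so its ratios were not recomputed under the alternative settings. Col4a5 of basal keratinocytes was at 19.3, 18.7, 54.6 and 41.3 at the 4 times, against 36.3 in control, which left 0.0414, 0.0651, 0.190 and 0.298 Col4a6 UMIs per Col4a5 UMI, against 0.251 in control.

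**Figure D5:**
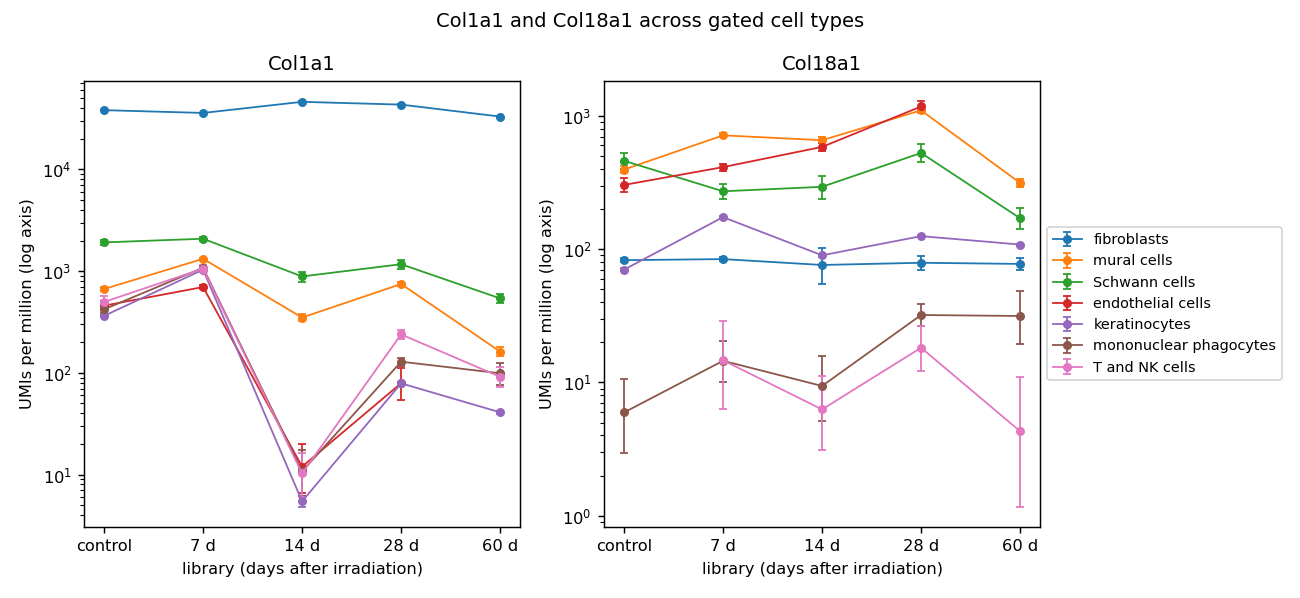
CPM (log axis) of Col1a1 and Col18a1 by cell type and library, with exact 95% Poisson intervals (a level of 0, as for Col18a1 in control T and NK cells, is not drawn). Col1a1 of keratinocytes follows that of T and NK cells and phagocytes from library to library, while Col18a1 of keratinocytes lies above control at each time.

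Over all keratinocytes Col17a1 was at 149 CPM at 14 d, against 500 in control (log2 -1.74), where suprabasal cells made up 1294 of 2026 gated keratinocytes at 14 d and 814 of 4730 in control. The keratinocyte list as a whole gave mostly lower calls after 7 d, and its most abundant fibrillar genes, Col1a1 and Col3a1, stood near or below the level of T and NK cells. At 7 d 5 of 24 genes were higher and 1 lower (7.77% and 5.77% of all genes), and 0 were higher at 14, 28 and 60 d while 22 of 23, 15 of 25 and 13 of 25 were lower (backgrounds of 6.95%, 5.62% and 3.33% higher and 33.3%, 18.1% and 17.3% lower). Col1a1 was at 363 CPM in keratinocytes of the control library and 1034, 5.45, 78.9 and 40.9 at the 4 times, beside 498, 1058, 10.3, 239 and 91.4 in T and NK cells. The keratinocyte level was 0.729, 0.977, 0.531, 0.330 and 0.448 times that of T and NK cells from control to 60 d, at or below the background in each library. Col3a1 UMIs per Col1a1 UMI were 1.38, 0.948, 0.296, 0.442 and 0.702 in keratinocytes from control to 60 d. Col17a1, by contrast, was 46.4, 45.7, 21.8, 11.5 and 37.2 times the T and NK cell level.

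Schwann cells had their own collagens. They held 78.0%, 80.2% and 91.4% of the Col20a1 UMIs of gated cells in the control, 7 and 60 d libraries, and 53.6% at 28 d, when all gated cells held only 69 (at 14 d under 50), and between 68.8% and 95.9% of those of Col28a1, a collagen known from peripheral nerve. Col20a1 had 413 CPM in control and 405, 77.7, 119 and 521 at 7, 14, 28 and 60 d (log2 -0.03, -2.41, -1.79 and 0.34). The 14 d level came from 27 UMIs in 4 of 101 cells, and the 28 d level from 13 of 123 cells, against 33 of 100 in control. Col28a1 had 156 in control and 136, 202, 264 and 77.1, with a log2 ratio of -1.02 [-1.56, -0.49] at 60 d. Col4a1 (836, then 1022, 884, 1083 and 749) and Col5a3 (523, then 608, 573, 392 and 623) of Schwann cells kept within 0.42 of control on the log2 scale, unlike the same genes in fibroblasts. Of the Schwann cell genes measured, 0 of 17 were higher and 1 lower at 7 d (4.28% and 1.83% of all genes), 0 and 4 of 14 at 14 d (7.34% and 12.8%), 0 and 3 of 14 at 28 d (6.66% and 14.3%) and 0 and 6 of 15 at 60 d (6.22% and 9.87%). Myoblasts were gated in 57, 142 and 57 cells of the control, 7 and 60 d libraries. They had the highest Col11a1 level of any gate in control (113 CPM). Their Col26a1 was at 81.1 CPM in control and 18.1 and 11.7 at 7 and 60 d. Its UMIs in control and either later library together were under the limit of 50, so no difference in Col26a1 is read from these levels.

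Genes that make, fold and crosslink collagen were read in fibroblasts from a list of 27, of which 24 were in the tables. At 7 d 1 of 23 measured was higher and 1 lower (5.6% and 2.5% of all genes), at 14 d 3 and 3 of 22 (15.2% and 10.1%), at 28 d 2 and 1 of 22 (13.4% and 6.32%) and at 60 d 0 and 0 of 22 (14.2% and 6.79%), with list medians of -0.04, -0.01, -0.03 and -0.12 on the log2 scale beside 0.12, 0.07, 0.19 and 0.26 for all genes. Serpinh1, the collagen chaperone, had 1171, 734, 1321 and 1284 CPM at 7, 14, 28 and 60 d, against 1170 in control. Lox, which crosslinks fibrils, had 714, 393, 645 and 497, against 948 in control, and passed the threshold at 14 d only (log2 -1.27). Plod2, which hydroxylates the telopeptide lysines used for crosslinks, had 3.08, 36.2, 32.2 and 9.25, against 7.45 in control (log2 -1.28, 2.28, 2.11 and 0.31), the 14 d value from 20 UMIs. Of the 9 collagen receptors, 8 were measured at 7 d and 7 at the other times, with medians of -0.25, -0.64, -0.59 and -0.05. Against the same backgrounds, 0 were higher and 0 lower at 7 d, 1 and 2 at 14 d (Itga1 higher, Itga11 and Ddr1 lower), 2 and 1 at 28 d (Itga1 and Ddr1 higher, Itga2 lower) and 1 and 1 at 60 d (Itga1 higher, Itga2 lower). Itgb1, the beta chain of the collagen-binding integrins, had 552, 538, 500 and 420, against 781 in control. Itga1, the alpha chain of one of them, had 5.88, 10.9, 11.9 and 11.7, against 5.22 in control, with 6 UMIs behind the 14 d value. Itga2, the alpha chain of another, had 118 UMIs in control and 117, 3, 0 and 5 at the 4 times. These are raw UMIs from gates of 2863 control cells and 5610, 74, 551 and 602 irradiated cells, so they do not compare levels.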

How the data were processed

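Skin cell suspensions had been run on the 10x Genomics Chromium 3′ v3 kit, after sorting to remove debris and dead cells. The authors deposited raw UMI counts per gene and barcode, made with Cell Ranger 5.0.0 and STAR on Rnor_6.0 according to the submitters' processing notes, which also name Seurat 3.1.1. Rows sharing a symbol (2753) were summed. Barcodes with at least 500 UMIs, 300 genes and at most 20% mitochondrial UMIs were kept, and no doublet caller was run.

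A marker was seen in a cell when its UMIs exceeded what 10% free RNA of the library's mean profile would give (Poisson tail below 1%). A cell was gated with at least 3 markers seen and any other type at 50% of that or less. Gates held 77.5% to 92.9% of kept cells, and 2.69% to 4.03% that mixed types were left out. Counts were summed per gate (at least 50 cells) and library. With 1 library per group no test was run. Levels have exact Poisson and ratios exact conditional binomial 95% intervals, and against a sum of 0 the floor was 3 counts. Genes at 50 CPM (UMIs per 1000000) or more in some gate and library were named, with the 5 highest and 5 lowest ratios per comparison described where they mattered. The fibroblast groups by single genes were cut at 3 UMIs. Alternatives were other gates, limits, thresholds, scaling, the mean over cells and thinning to 1000 UMIs. The members and lists were chosen with earlier results of these data known, and the free RNA step of the gate after a first gate on any UMI had left 13.5% to 40.4% of cells mixed. The code for ratios and gates was run on simulated counts drawn from the gated sums of these libraries. Those counts held no doublets and no spread between animals, so the runs check the code and not the cell types or the differences. Python 3.11.15, numpy 2.4.6, pandas 2.3.3 and SciPy 1.17.1 were used.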

Additional observations from a re-analysis of the deposited data

Results flagged for a closer look

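The level of all collagens together lay above control at some times and below it at others within 1 cell type, by at least 0.5 on the log2 scale each way, in 3 cell types. Keratinocytes were above control at 7 d (log2 0.81) and below it at 14 d (-2.57), 28 d (-0.85) and 60 d (-0.67). The 10 fibroblast markers moved with this, at 686, 8.98, 38.3 and 41.3 CPM in keratinocytes at the 4 times, against 274 in control. The sum of all collagens in keratinocytes was 1.18, 6.82, 1.82 and 4.20 times that of T and NK cells, against 1.17 times in control. Mural cells were above at 7 d (0.75) and 28 d (0.68) and below at 60 d (-1.16). The median mural cell had 0.441%, 0.267% and 0.148% of its UMIs from collagens at 7, 28 and 60 d, against 0.338% in control. At 28 d the median cell was thus below control, while the 90th percentile was above it (0.981% against 0.756%). Endothelial cells were below at 14 d (-0.51) and above at 28 d (0.78). The median endothelial cell had 0.144% and 0.341% of its UMIs from collagens at 14 and 28 d, against 0.290% in control. At 28 d the median was thus only slightly above control, while the 90th percentile was further above it (1.60% against 0.783%). The fibroblast markers of endothelial cells summed to 755, 33.4 and 49.4 CPM at 7, 14 and 28 d, against 469 in control. With 1 library per time the differences between times were not tested, and the 60 d mural cells held no gated pericytes. The part of free RNA in these differences was not tested.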

How the results depend on the processing

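The lower level of all collagens in fibroblasts kept its sign under each of the 8 settings that give it a value. In the order 7, 14, 28 and 60 d the log2 ratio was -0.20, -0.31, -0.21 and -0.52 with collagens left out of the total, -0.28, -0.32, -0.34 and -0.71 under median-of-ratios scaling, -0.19, -0.50, -0.48 and -0.75 as a mean over cells, -0.18, -0.33, -0.12 and -0.41 under the strict gate, -0.18, -0.26, -0.18 and -0.48 at a mitochondrial limit of 10%, -0.19, -0.46, -0.46 and -0.76 after thinning, and -0.21, -0.11, -0.24 and -0.69 under the gate on any UMI, which was added after seeing the data. The relaxed gate gave -0.20 at 28 d and -0.57 at 60 d. The counts of collagen genes depend on the threshold. At a log2 ratio of 0.5, 5 genes were lower at 7 d, 5 higher at 14 d, 7 lower at 28 d, and 5 higher and 7 lower at 60 d. With at least 10 UMIs, 4 were higher and 3 lower at 7 d, 11 higher at 14 d, and 7 higher and 3 lower at 60 d. Lower genes at 7 d numbered 2 under median of ratios, the mean over cells and thinning and 0 under any UMI, those at 14 d numbered 5 after thinning, and 1 gene was higher at 28 d under any UMI. At 60 d 2 were lower with collagens out of the total, under the relaxed gate, at 10% mitochondrial and after thinning, 4 under median of ratios and 3 as a mean over cells.

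The main value passed the threshold in 166 ratios, and recomputing these under each setting gave 1327 values. Median-of-ratios scaling shifted log2 ratios little (the largest shift came from a median of -0.37, keratinocytes at 14 d). It could therefore not reverse a ratio past the threshold. Leaving collagens out of the total changed the sign of 0 of all 453 ratios, past the threshold or not. Of the 166 ratios, 12 changed sign under some setting, 7 under the gate on any UMI and 5 after thinning. Under the gate on any UMI these were Col7a1 (-0.77, -0.50 and -0.35 at 14, 28 and 60 d) and Col13a1 (-0.54 at 28 d) in fibroblasts, and Col8a1 (-0.028 at 7 d) and Col14a1 (0.21 at 28 d and 0.16 at 60 d) in mural cells. After thinning they were Col8a1 (-0.31 at 7 d), Col13a1 (0.82 at 14 d) and Col20a1 (0.15 at 60 d) in keratinocytes, and Col13a1 (-0.91 at 7 d) and Col6a2 (0.27 at 28 d) in endothelial cells. The cause was not tested.

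There was no replicate to leave out, and time, animal and library cannot be told apart. No paired analysis was possible because each group is 1 library. Intervals cover counting error only. Genes with few UMIs, the 14 d fibroblasts (74 cells) and the 28 d endothelial cells (72 cells) carry the widest intervals.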
